A study of Mus musculus with 6 samples.

Results

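Peroxisome proliferator-activated receptor alpha (PPAR-alpha) and 7 genes that it is known to switch on were followed in the small intestine of mice lacking alk-SMase (KO) and of WT mice. The 8 genes are Ppara, Creb3l3, Cpt1a, Acadm, Acadl, Pdk4, Angptl4 and Plin2. They were chosen by name, for their known function, with earlier results of these data known. All 8 of 8 could be found in the deposited table, among 12402 genes whose values could be assigned in its 22700 rows, and all 8 passed the filter on low values.

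RNA-seq was made from mucosa of the middle small intestine, with 1 library per mouse, and gave FPKM values, which are fragments counted per length of transcript and per mapped reads of the library. All mice were C57BL/6. The 3 KO mice (libraries K79S, K82S and K86S) carried the alk-SMase knockout, in which Cre-loxP recombination removed exon 2 of Enpp7, and the 3 WT mice (W83S, W89S and W90S) were wild type. The mice were fed standard pellets, and age, sex, time of day and length of fasting were not given in the sources used here. Alk-SMase, the product of Enpp7, is the gut enzyme that splits dietary sphingomyelin. FPKM values do not tell how many reads they rest on, so counting error is not given. Each p-value sets the difference between genotypes against the spread between libraries of the same genotype. With 1 library per mouse, that spread holds differences in counting and dissection together with those between mice. Enpp7 itself (chr11:118988188-118993221, plus strand) was at 605 FPKM in K79S, 129 in K82S and 670 in K86S, and at 406 in W83S, 667 in W89S and 495 in W90S. A value for the whole gene does not show whether exon 2 is missing, so it checks no label.

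PPAR-alpha is a nuclear receptor that binds fatty acids and pairs with RXR on DNA. In fasting and on fat-rich food it raises the genes for the entry of fatty acids into mitochondria, their beta-oxidation and the making of ketone bodies. In the small intestine it is found in the absorptive enterocytes, which take up dietary fat, store part of it for a time in lipid droplets and send most of it out in chylomicrons.

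None of the 8 genes differed between KO and WT mice beyond the spread between mice. The KO and WT libraries overlapped for every gene, the log2 fold changes ran from -0.22 for Acadm to 0.20 for Ppara, and the lowest adjusted p-value was 0.557 (limma). The median log2 fold change was 0.02, beside -0.06 over all 13089 rows tested, a difference of 0.08 that was the same under each scaling of the libraries. A row was called when its fold change passed 1.5 with an adjusted p-value under 0.05, which 1 row did (0.00764% of those tested), and 12.5% had an unadjusted p-value under 0.05, which none of the 8 genes had. All KO libraries stood above all WT libraries in 5.90% of the rows and below them in 11.3%, against 0 of 8 genes here in either direction. That balance turned with scaling, to 14.4% above and 5.77% below when every library was scaled to the same sum, and to 8.71% and 11.2% with median-ratio scaling, and it was again 0 of 8 genes under both. The genes differed more in how far they spread among mice, from 1.29-fold between the highest and the lowest library for Cpt1a to 7.99-fold for Pdk4.

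The promoters are shown because the receptor pair binds a direct repeat, made of a pair of AGGTCA half-sites with 1 base between them. RefSeq windows of the 250 bases before a gene start (GRCm38.p6, the assembly of mm10) were at hand for 7 of the 8 genes, with 2 windows for Creb3l3. The half-site AGGTCA lay on one strand or the other in 4 of these 8 windows and in 14% of 32851 windows of all genes. The exact direct repeat lay in 0 of the 8 windows and in 0.0335% of all windows, and a repeat with at most 2 of its letters changed in 2 of the 8, those of Creb3l3 and Plin2, and in 3.24% of all. For Creb3l3 both kinds of match lay in the window chr10:81092592-81092841, inside the annotated gene (chr10:81084324-81098874, minus strand). The stretch around them touches 2 annotated exons and is not printed. The other Creb3l3 window, chr10:81098873-81099122 at the annotated start, held no match. The stretches around the matches in Cpt1a, Acadm and Plin2 touch no annotated exon and are given with the match in capitals, on the strand of the gene. TGACCT is the half-site read on the opposite strand, and in Plin2 the capitals mark the changed repeat.
Cpt1a, chr19:3323177-3323242, plus strand: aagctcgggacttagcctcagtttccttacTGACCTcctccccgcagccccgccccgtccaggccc
Acadm, chr3:153944857-153944893, minus strand: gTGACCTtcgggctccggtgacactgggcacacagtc
Plin2, chr4:86670242-86670309, minus strand: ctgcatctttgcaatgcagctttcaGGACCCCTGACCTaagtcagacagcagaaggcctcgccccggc
A match of letters is a description of the sequence and does not show that the receptor binds there.

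**Figure D1:**
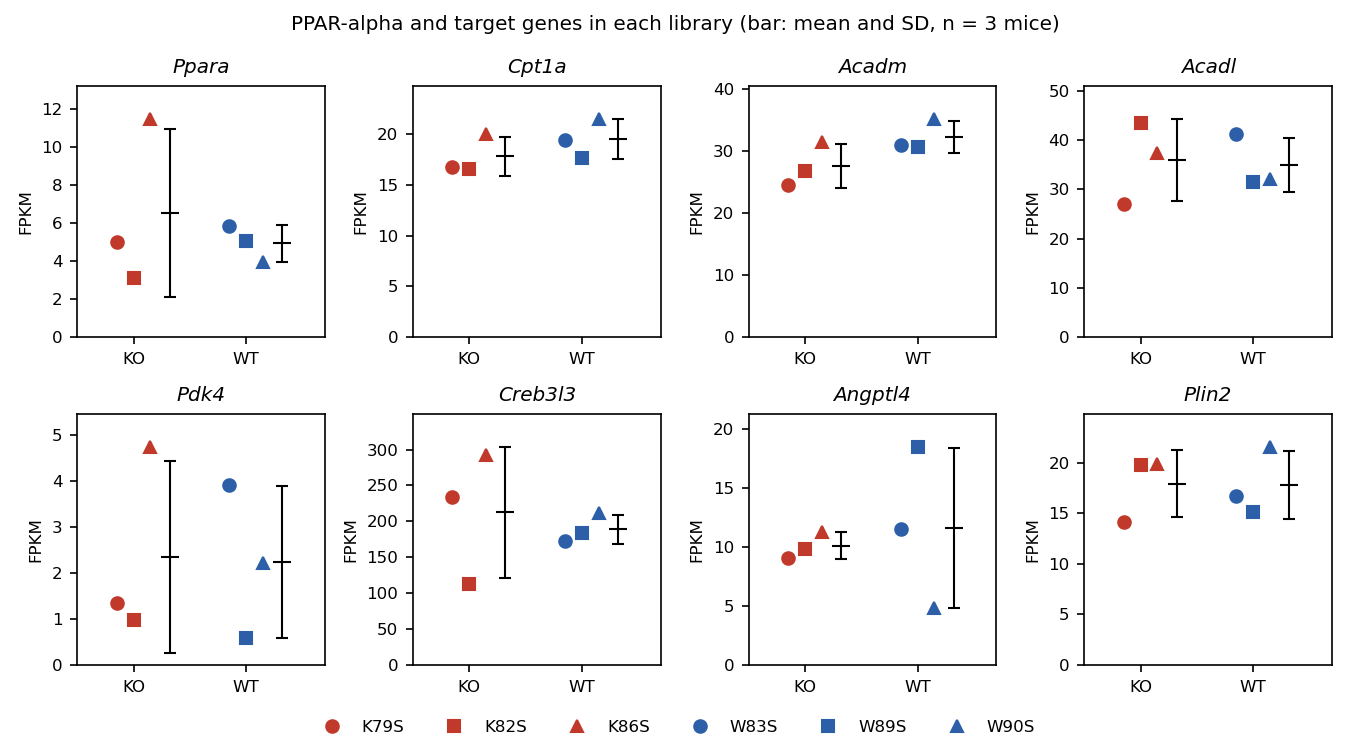
FPKM (y axis, from 0) of Ppara and 7 target genes in the 3 KO libraries (red) and the 3 WT libraries (blue), with a black mark and bar for the mean and SD of each genotype. KO and WT points overlap in every panel, and Ppara reached 11.5 FPKM in K86S against 3.11 to 5.87 in the other libraries.

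Ppara encodes the receptor itself and lies on chr15:85734983-85802819, plus strand (mm10, GENCODE M21, as for all positions of genes given here). Its level was 5 FPKM in K79S, 3.11 in K82S and 11.5 in K86S, and 5.87 in W83S, 5.05 in W89S and 3.94 in W90S. K86S was the highest and K82S the lowest of all 6, so the KO mice spanned the whole WT range. The mean was 6.54 ± 4.4 in KO and 4.95 ± 0.967 in WT mice (SD, n = 3 each), a log2 fold change of 0.20 (SE 0.40, adjusted p = 0.855, limma). The 95% interval ran from 0.594-fold to 2.21-fold, which holds changes larger than 1.5-fold in both directions. Leaving out K82S gave 0.55 (SE 0.33, adjusted p = 0.363) and leaving out K86S gave -0.25, so the direction differed with the KO mouse left out.

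Creb3l3 encodes a membrane-bound transcription factor of liver and small intestine that is released by cleavage and raises genes of triglyceride clearance. It lies on chr10:81084324-81098874, minus strand, and was the most abundant of the 8 genes. Its level was 234 FPKM in K79S, 113 in K82S and 292 in K86S, and 172 in W83S, 184 in W89S and 212 in W90S. The WT mice were close together, while the lowest and the highest value were both in KO mice. The mean was 213 ± 91.3 in KO and 189 ± 20.4 in WT mice (SD, n = 3 each), with a log2 fold change of 0.07 (SE 0.36, adjusted p = 0.945, limma). Without K82S, the KO libraries stood above all WT libraries and the log2 fold change was 0.47 (SE 0.19), which still missed the threshold (adjusted p = 0.186, limma). In that fit 11.9% of all rows had the KO libraries above all WT libraries and 32.3% below, and 0.400% were called higher in KO and 8.88% lower.

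Cpt1a encodes carnitine palmitoyltransferase of the outer mitochondrial membrane, the rate-setting step by which long-chain fatty acids enter mitochondria. It lies on chr19:3322334-3385733, plus strand. Its level was 16.8 FPKM in K79S, 16.6 in K82S and 20 in K86S, and 19.4 in W83S, 17.6 in W89S and 21.5 in W90S. It was the steadiest of the 8 genes, with the highest library 1.29 times the lowest. The mean was 17.8 ± 1.9 in KO and 19.5 ± 1.95 in WT mice (SD, n = 3 each), with a log2 fold change of -0.12 (SE 0.15, adjusted p = 0.747, limma). As deposited, the 95% interval of the fold, from 0.717 to 1.18, leaves out a change of 1.5-fold in either direction. The sign turned to 0.05 when every library was scaled to the same sum.

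Acadm and Acadl encode the medium-chain and long-chain acyl-CoA dehydrogenases, which take the first step of each round of beta-oxidation. Acadm lies on chr3:153922357-153944632 and Acadl on chr1:66830839-66863277, both on the minus strand. Acadm was at 24.6 FPKM in K79S, 26.8 in K82S and 31.5 in K86S, and at 31 in W83S, 30.6 in W89S and 35.2 in W90S. Its KO mean was 27.6 ± 3.5 and its WT mean 32.3 ± 2.57 (SD, n = 3 each), with a single KO library, K86S, inside the WT range. The log2 fold change was -0.22 (SE 0.16, adjusted p = 0.557, limma), with an interval of the fold from 0.663 to 1.11. Acadl was at 27.1 FPKM in K79S, 43.5 in K82S and 37.4 in K86S, and at 41.1 in W83S, 31.4 in W89S and 32 in W90S. Its means were nearly equal, at 36 ± 8.29 in KO and 34.9 ± 5.43 in WT mice (SD, n = 3 each), with a log2 fold change of 0.03 (SE 0.22, adjusted p = 0.961, limma). The 2 dehydrogenases did not share an order of mice, since Acadl was highest in K82S and Acadm was below its mean there.

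Pdk4 encodes a pyruvate dehydrogenase kinase that turns cells from glucose to fat as fuel, and is among the fastest genes to respond to fasting. It lies on chr6:5483351-5496309, minus strand, and had the lowest level of the 8 genes. Its level was 1.34 FPKM in K79S, 0.97 in K82S and 4.76 in K86S, and 3.92 in W83S, 0.596 in W89S and 2.23 in W90S. Each genotype held both a high and a low mouse, and the highest library was 7.99 times the lowest. The mean was 2.36 ± 2.09 in KO and 2.25 ± 1.66 in WT mice (SD, n = 3 each), with a log2 fold change of 0.02 (SE 0.54, adjusted p = 0.989, limma). At this spread the 95% interval ran from 0.417-fold to 2.47-fold. Folds here are taken after 1 is added to each FPKM value, so those of a low gene such as Pdk4 are understated.

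Angptl4 encodes a secreted inhibitor of lipoprotein lipase, which in the gut also restrains pancreatic lipase. It lies on chr17:33773750-33781830, minus strand. Its level was 9.02 FPKM in K79S, 9.84 in K82S and 11.3 in K86S, and 11.5 in W83S, 18.5 in W89S and 4.86 in W90S. The 3 KO mice were close together and lay inside the WT range, whose ends were both far from them. The mean was 10.1 ± 1.17 in KO and 11.6 ± 6.81 in WT mice (SD, n = 3 each), with a log2 fold change of -0.03 (SE 0.41, adjusted p = 0.98, limma) that turned to 0.14 with every library scaled to the same sum and to 0.05 with scaling by median ratios.

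Plin2 encodes perilipin 2, the coat protein of lipid droplets, which fills with the fat load of an enterocyte. It lies on chr4:86648386-86670060, minus strand. Its level was 14.1 FPKM in K79S, 19.8 in K82S and 19.9 in K86S, and 16.7 in W83S, 15.1 in W89S and 21.6 in W90S. Both genotypes covered nearly the same range, with a mean of 17.9 ± 3.32 in KO and 17.8 ± 3.4 in WT mice (SD, n = 3 each). The log2 fold change was 0.01 (SE 0.20, adjusted p = 0.988, limma), with an interval of the fold from 0.717 to 1.41.

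**Figure D2:**
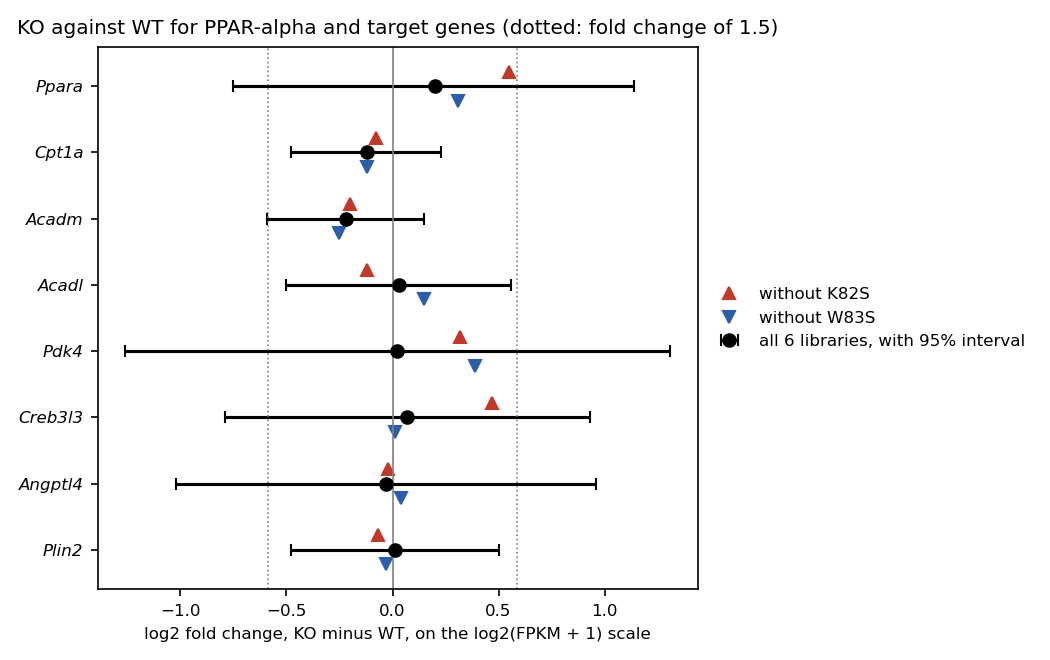
Log2 fold change of KO minus WT on the log2(FPKM + 1) scale (x axis) for the 8 genes (y axis), with 95% intervals from limma over 6 libraries (black) and the values without K82S (red) or without W83S (blue). All 8 intervals cross 0, that of Cpt1a is the narrowest and that of Pdk4 the widest, and Creb3l3 moved from 0.07 to 0.47 without K82S.

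The exact two-sided permutation test of 3 against 3 mice cannot go below p = 0.1. This exact test gave p = 0.3 for Cpt1a and for Acadm, and 0.9 or 1 for each of the other genes. A p-value that misses the threshold does not show that a gene was at the same level in both genotypes. As deposited, the intervals of Cpt1a, Acadl and Plin2 leave out a 1.5-fold change in either direction, and that of Acadm leaves out a 1.5-fold increase. Those of Ppara, Pdk4, Creb3l3 and Angptl4 leave out neither. Intervals are not given for the other scalings. Scaling to the same sum moved the log2 fold change of Acadl from 0.03 to 0.21 and that of Plin2 from 0.01 to 0.18. What the intervals leave out may therefore differ with the scaling.

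FPKM is given per length of transcript, so levels may be set beside each other. Creb3l3 was highest at a mean of 201 FPKM over the 6 libraries, followed by Acadl at 35.4, Acadm at 30, Cpt1a at 18.7, Plin2 at 17.9, Angptl4 at 10.8, Ppara at 5.75 and Pdk4 at 2.3. Every library of Creb3l3 lay above every library of Acadl, and every library of Acadm above every library of Cpt1a. All other neighbours in that order overlapped between libraries.

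The spread between mice of the same genotype differed widely among the genes. The residual SD on the log2 scale was 0.14 for Cpt1a and 0.15 for Acadm, at percentiles 18.5 and 20.2 of all rows tested, and it was 0.28 for Acadl and 0.26 for Plin2, near the median of 0.24 over all rows. For the receptor Ppara it was 0.60 (percentile 91), for the transcription factor Creb3l3 0.52 (percentile 87), for the secreted Angptl4 0.63 (percentile 91.8) and for the kinase Pdk4 0.83 (percentile 95.7). These 4 genes varied more within genotypes than most of the table, as did Acadl and Plin2 by a small margin, while Cpt1a and Acadm varied less. In a bulk sample, fewer cells of a type and less RNA per cell cannot be told apart.

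Set by library, K86S was above the gene mean for 8 of 8 genes and K79S for 1 of 8, and both were KO mice. W83S was above it for 6 and W90S for 5, while K82S and W89S were above it for 2 each. K86S held the highest value of Ppara, Pdk4 and Creb3l3, and W90S that of Cpt1a, Acadm and Plin2. K82S held the lowest value of Ppara, Cpt1a and Creb3l3, and K79S that of Acadm, Acadl and Plin2. Over the 6 libraries, log2(FPKM + 1) of Cpt1a and Acadm had a Pearson correlation of 0.90, Ppara and Creb3l3 of 0.77, Ppara and Pdk4 of 0.71, and Angptl4 and Plin2 of -0.57. These are descriptions over 6 points that share library composition and dissection, with no test.

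**Figure D3:**
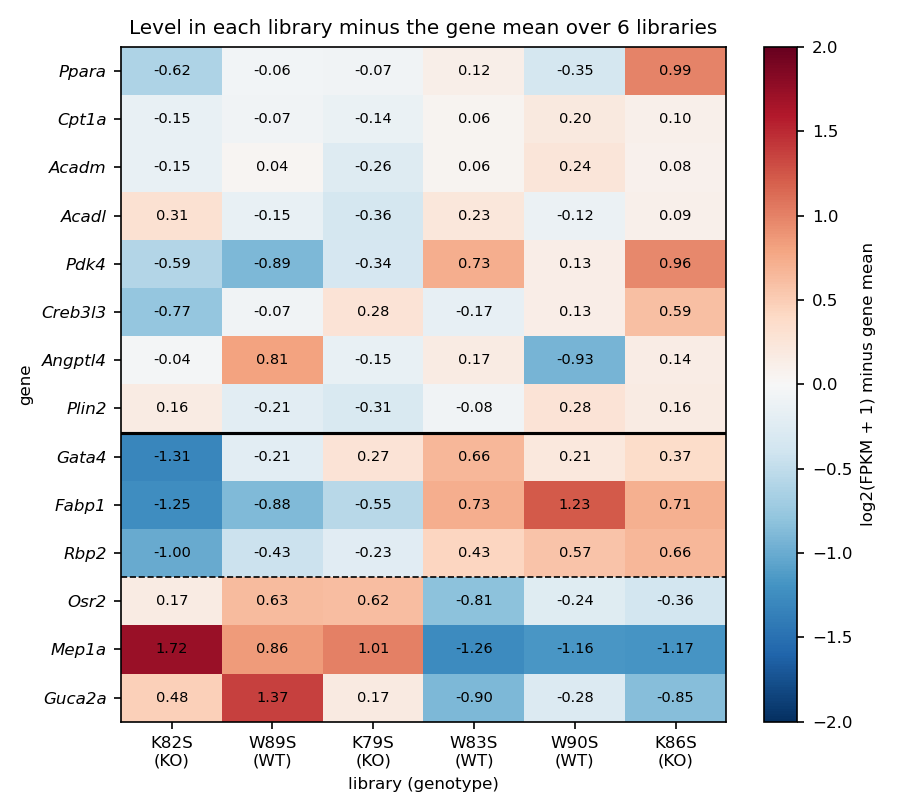
Log2(FPKM + 1) minus the mean of the gene over 6 libraries (colour and printed number) for the 8 genes (above the solid line) and, for comparison, 3 proximal and 3 distal enterocyte markers (above and below the dashed line), with libraries as columns. K86S was above the mean for all 8 genes, and K82S had the lowest value of the 3 proximal markers drawn, and of 5 of the 8 on the list, together with the lowest Creb3l3 (-0.77) and Ppara (-0.62).

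Several libraries stood apart in ways that the genotype labels do not give, and their part in the results was not tested. W83S held 41019 FPKM of 7 gastric markers, against 0 to 5.72 in the other libraries, and 12525 FPKM of 4 pancreatic acinar markers, against 11.1 to 82.5. The summed proximal enterocyte markers were lowest in K82S (2221 FPKM) and W89S (3164), against 4082 to 9266 in the other libraries, and of the 8 single markers 5 were lowest in K82S and 1 each in K79S (Cybrd1), W89S (Onecut2) and W90S (Slc40a1). The sum of 3 distal markers was highest in W89S (2134), K82S (1435) and K79S (1097), against 451 to 672. The 8 pan-enterocyte markers were present in every library and summed to 17634 to 23181 FPKM, of which Apoa1 alone gave 11160 to 14702. The highest library was from 1.32 times the lowest for Apoa1 to 2.64 times for Anpep, so the even sum mostly reflects 1 gene. K82S also had the highest immune marker sum, at 223 FPKM against 80 to 143, and Jchain gave 162 of it. All KO libraries stood above all WT libraries for Cd3e (4.44 to 6.11 against 2.22 to 2.71 FPKM), Cd8a and Itgax, also with both other scalings. Each of these had an adjusted p-value of 0.393 (limma). The same order held for 5.90% of all rows as deposited. Ptprc, Cd79a, Jchain and Cd68 overlapped between genotypes. K79S alone had almost no RNA of the Y-linked Ddx3y and Eif2s3y, at 0.0279 FPKM in sum against 8.62 to 12.2.

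W83S held neither the highest nor the lowest value of any of the 8 genes. Creb3l3 was lowest in K82S, where the proximal marker Gata4 was at 11.3 FPKM against 25.4 to 47.2 in the other libraries. Leaving out W83S left all 8 genes below the threshold, with log2 fold changes from -0.25 for Acadm to 0.39 for Pdk4, and leaving out K79S did the same, with values from -0.14 for Acadm to 0.28 for Ppara. Adipocytes hold much Plin2, Angptl4 and Pdk4. Of 8 adipocyte markers, Fabp4 and Lipe could be assigned, and for both the KO and WT libraries overlapped. Lipe stood at 18.9 to 30.1 FPKM in KO and 17.9 to 21.5 in WT mice. Fabp4 stood at 1.11 FPKM in K79S, 6.28 in K82S and 0.602 in K86S, and at 0.702 to 1.28 in WT mice. Clock genes, through which the time of day is known to act on PPAR-alpha targets, summed to 117 to 205 FPKM in KO and 128 to 151 in WT mice over 11 genes. The sum hides single genes. Dbp was at 12.6 FPKM in K82S against 25.5 to 54.8 in the other libraries. Per1, Per2, Per3, Nr1d2, Ciart and Tef were also lowest in K82S, while Npas2 was highest there. Clock, Cry1 and Nr1d1 had neither extreme in K82S. Whether the time of day had a part in the results was not tested. Marker sums were 22.5 to 57.5 in KO and 57.3 to 102 FPKM in WT mice for 4 crypt genes, 17 to 37.4 and 14.3 to 36.2 for 5 stromal genes, and 21.1 to 64.1 and 52.2 to 95.6 for 4 red blood cell genes.

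The rest of the pathway was read from 10 lists of genes, of which 88 of 108 could be tested. None of the 88 passed the threshold, and 4 had an unadjusted p-value under 0.05 (4.55%, against 12.5% of all rows). In 6 of them (6.82%) every KO library stood above every WT library, and in 5 (5.68%) below, against 5.90% and 11.3% of all rows. As deposited, these shares were near or below those of the whole table. Scaling shifts all values together, since the median log2 fold change of all rows was -0.06 as deposited, 0.01 after scaling by median ratios and 0.08 after scaling to the same sum, with 57.7%, 49.1% and 40.1% of rows below 0. Medians of lists are therefore also given relative to that median, and each relative median kept its sign under both other scalings.

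Mitochondrial beta-oxidation had 16 of 16 genes tested, Acadm and Acadl among them. Of these, 15 had a log2 fold change below 0 and 0 passed the threshold. The median was -0.23, which was 0.16 below the median of all rows, and it stayed 0.15 below with median-ratio scaling and 0.13 below with scaling to the same sum, where 11 of the 16 were below 0. Hadh, which takes the third step of the cycle, stood at 130 ± 37.8 in KO and 142 ± 21.7 FPKM in WT mice (SD, n = 3 each), a log2 fold change of -0.15 that turned to 0.03 with scaling to the same sum (adjusted p = 0.821, limma). Etfb, which carries electrons from the dehydrogenases, stood at 100 to 111 FPKM in KO and 116 to 141 in WT mice, and the thiolase Acaa2 at 57.6 to 113 and 83.5 to 141. KO libraries were below all WT libraries for Etfb, Echs1 and Eci1 (18.8% of the list, against 11.3% of all rows). This held with both other scalings for none of them.

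The 5 genes of ketone body metabolism all had a log2 fold change below 0, with a median of -0.34, which was 0.28 below that of all rows (0.21 and 0.25 below with the other scalings), and 0 passed the threshold. All 5 were below 0 also with scaling to the same sum, as were the 4 that passed the filter on low values with median-ratio scaling. Bdh1, which makes and breaks down hydroxybutyrate, stood at 27.8 ± 5.13 in KO and 35.5 ± 5.83 FPKM in WT mice (SD, n = 3 each), Acat1 at 23.6 ± 7.67 and 34.8 ± 7.46, and Oxct1, which activates ketone bodies for burning, at 27.1 ± 18.1 and 31.1 ± 18.8.

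Of 6 genes of the carnitine shuttle 3 had a log2 fold change above 0 and 3 below (6 and 0 with scaling to the same sum), with a median of 0.18, which was 0.24 above that of all rows, and 0 past the threshold. Slc22a5, the carnitine importer of the cell membrane, stood at 30.9, 31 and 26.3 FPKM in the KO mice and 22.1, 19.4 and 21.3 in the WT mice. Slc25a20, which carries acylcarnitine across the inner mitochondrial membrane, stood at 10.5, 17.9 and 14.3 FPKM against 10.4, 8.22 and 10.2. All KO libraries were above all WT libraries for both, also with both other scalings, which held for 5.90% of all rows as deposited, 8.71% with median-ratio scaling and 14.4% with scaling to the same sum. Their log2 fold changes of 0.47 (SE 0.14) and 0.49 (SE 0.21) each had an adjusted p-value of 0.393 (limma). Cpt2, the inner partner of Cpt1a, stood at 42.8 ± 4.38 in KO and 46.6 ± 10.8 FPKM in WT mice (SD, n = 3 each).

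Among 11 receptors and cofactors, 7 were above 0 and 4 below (9 and 2 with scaling to the same sum), with a median of 0.06, which was 0.12 above that of all rows, and 0 past the threshold. Rxra, the DNA-binding partner of PPAR-alpha, stood at 35.3 ± 3.24 FPKM in KO and 28.9 ± 3.92 in WT mice, and Ppard, the related receptor that shares many targets, at 37.2 ± 2.8 and 38.3 ± 3.18 (SD, n = 3 each). Ppard and Rxra were thus each several times the level of Ppara in every library. The corepressors Ncor1 (11.9 ± 0.204 in KO and 9.67 ± 0.675 FPKM in WT mice) and Nrip1 (6.16 ± 0.738 and 4.45 ± 0.362) had all KO libraries above all WT libraries under each scaling. The same order held for 5.90% of all rows as deposited, 8.71% with median-ratio scaling and 14.4% with scaling to the same sum. Both genes had an adjusted p-value of 0.393 (limma).

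In peroxisomal oxidation, 8 of 13 genes were above 0 and 5 below (11 and 2 with scaling to the same sum), with a median of 0.03, which was 0.09 above that of all rows, and 0 past the threshold. Ech1, a dienoyl-CoA isomerase, was lower in every KO mouse, at 54.6, 79.6 and 62.7 FPKM against 90, 104 and 93.6. Its log2 fold change of -0.56 (SE 0.19) had an adjusted p-value of 0.393 (limma). Without K82S the adjusted p-value was 0.0481 (limma), and Ech1 was the one gene called of 88 pathway genes tested. In that fit 8.88% of all rows were called lower in KO, so the call does not set Ech1 apart from the table. All KO libraries were below all WT libraries for Ech1 under each scaling. The same order held for 11.3% of all rows as deposited, 11.2% with median-ratio scaling and 5.77% with scaling to the same sum. Acot4, a peroxisomal thioesterase, had all KO libraries above all WT libraries (6.29 ± 0.743 against 4.88 ± 0.622 FPKM), as did 5.90% of all rows.

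Of the other lists, microsomal omega-oxidation had 3 of 5 genes above 0 (median 0.11), fuel switch and lipid droplet targets 6 of 11 (0.01), fatty acid synthesis 5 of 9 (0.03), and fatty acid binding and activation 3 of 8 (-0.05, and 7 of 8 with a median of 0.14 after scaling to the same sum), with 0 past the threshold in each. Relative to all rows these medians were 0.18, 0.07, 0.09 and 0.01 higher, and that of fatty acid synthesis turned to -0.15 without K82S. Cyp4f16, of the omega-oxidation list, stood at 63.7 ± 6.34 in KO and 51.1 ± 1.02 FPKM in WT mice. Its KO libraries were all above its WT libraries, as in 5.90% of all rows. The abundant Cyp4f14 stood at 785 ± 140 and 802 ± 135. The fatty acid carriers Fabp2 and Fabp1 stood at 7260 ± 1879 and 2104 ± 1469 FPKM in KO and 7540 ± 3195 and 3502 ± 2100 in WT mice. Cideb and Cidec, proteins of lipid droplets and of lipoprotein loading, stood at 293 ± 10.7 and 69.4 ± 28.9 in KO and 343 ± 50.3 and 77.6 ± 6.7 FPKM in WT mice, and Srebf1, which drives fat synthesis, at 14.2 ± 2.91 and 12 ± 1.84. All of these are mean ± SD with n = 3.

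Creb3l3 and its targets had 4 genes tested, with a median of -0.04, which turned to 0.15 after scaling to the same sum, and 0 past the threshold. Without K82S the median was 0.51 above that of all rows, against 0.02 above it with all 6 libraries. The target Apoa4, an apolipoprotein of chylomicrons, had 5807 FPKM in K79S, 2820 in K82S and 10434 in K86S, and 6786 in W83S, 3340 in W89S and 6996 in W90S. Like Creb3l3 it was lowest in K82S and highest in K86S. Apoc2, which activates lipoprotein lipase, stood at 489 ± 220 in KO and 742 ± 271 FPKM in WT mice, and Apoc3, which inhibits it, at 533 ± 269 and 525 ± 107 (SD, n = 3 each).

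**Figure D4:**
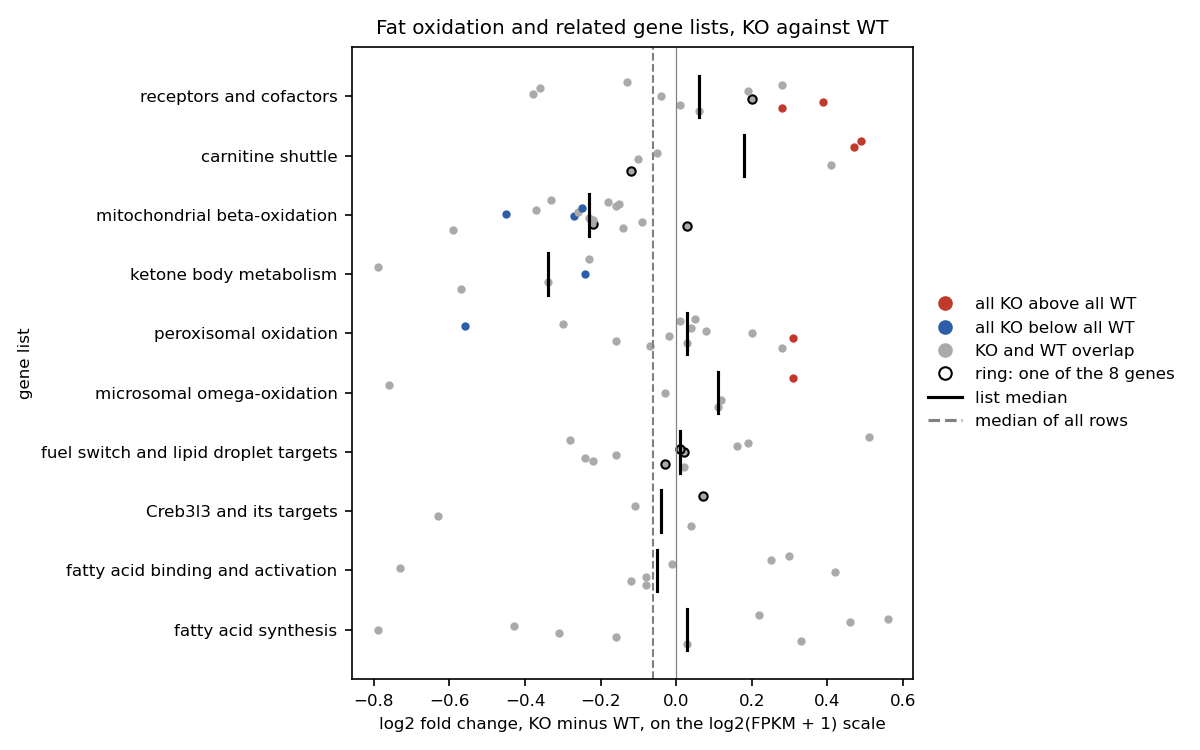
Log2 fold change of KO minus WT on the log2(FPKM + 1) scale (x axis) for each tested gene of the 10 lists (y axis), with list medians (black lines) and the median of all rows (dashed, -0.06). Red and blue points are genes without overlap between genotypes and rings mark the 8 genes, and 15 of 16 beta-oxidation genes lie left of 0, 11 of 16 after scaling to the same sum.

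The genes whose pattern over the 6 libraries was most like that of each of the 8 were found by Pearson correlation among 6794 genes. They were Hpgd (0.989) and Dusp6 (0.987) for Ppara, Mcur1 (0.995) and Nat8f5 (0.990) for Creb3l3, Sdha (0.988) and Ehhadh (0.986) for Cpt1a, and Ndufa5 (0.995) and Eci3 (0.988) for Acadm. For Acadl they were Psmd2 (0.973) and C1galt1 (0.970), for Pdk4 Nudt9 (0.990) and Ndel1 (0.989), for Angptl4 Gm5279 (0.990) and Akr1c14 (0.971), and for Plin2 Atp6ap2 (0.985) and Suz12 (0.976). They are the highest of 6794 coefficients over 6 points each, and serve as a description. Dusp6 stood at 51.5 FPKM in K86S against 21.6 to 33.7 in the other libraries, the same single high mouse as Ppara.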

How the data were processed

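RNA-seq data of small intestinal mucosa from 3 KO and 3 WT mice were used. The authors made 50 bp single-end reads, trimmed them, mapped them to mm10 with HISAT2 per the labels and quantified genes with StringTie. They deposited FPKM values, 1 per row and library. Tool versions, annotation and strand handling are not given in the sources used here, and 0 columns of per-sample values could not be mapped.

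In the deposited table, gene identifiers stand beside values of other genes. Identifiers were ranked by the K79S value beside them and rows by W83S, and each identifier was moved to the row of its own rank, corrected by small offsets found in earlier work on these files. Of 22700 rows, 12402 were assigned. The lowest W83S value of an assigned row was 0.954 FPKM, so genes low in W83S have no assigned row. Shares over all rows also count rows without an assigned gene. StringTie values of genes with 1 transcript carry at most 6 decimals. This held for 99.7% of 3649 such genes after the move and for 33.9% before it, a check that is not independent, because the offsets were found from decimals. Of genes with several transcripts 5.8% had at most 6 decimals, but 40.4% of the 931 whose identifier version differs from that of GENCODE M21. Cpt1a, with 8 transcripts in M21, is one of these, so its decimals do not check its row. In a window of 201 ranks around it, 96.5% of genes matched at its offset, against at most 60.7% at 10 others. A wrong offset would change the values of 5 libraries and hardly that of W83S.

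A row had to reach an FPKM of 1 in at least 2 libraries. The 13089 rows that did were put on the log2(FPKM + 1) scale and compared by limma's moderated test with a mean-variance trend (version 3.58.1, R 4.3.3). A call needed a Benjamini-Hochberg adjusted p-value under 0.05 together with a fold change past 1.5. The fit was tested on simulated data. Count models were not used, since FPKM are not counts. Single genes were also tested by an exact two-sided permutation test. Alternatives were other pseudocounts, filters and scalings, array weights and leaving out libraries.

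The 8 genes, the 10 pathway lists and 12 marker lists were chosen with earlier results of these data known. Named are the 8 genes, the 3 most abundant genes of lists, the 2 genes most correlated with each of the 8 (mean FPKM of at least 5) and Enpp7. Nrip1, Slc25a20, Echs1, Eci1, Acot4 and the marker genes were singled out after their values were seen. Some genes of the lists are not reported here by name.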

Additional observations from a re-analysis of the deposited data

How the results depend on the processing

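None of the 8 genes passed the threshold under any alternative. Of 112 values of single genes under alternatives, 88 kept the direction and 24 reversed, with adjusted p-values from 0.186 to 1 (limma). Rows past the threshold numbered 1 with all libraries, 0 with a pseudocount of 0.1 or of 0.01, 2 with array weights, 1111 with K82S and W83S both left out, and 0 to 1184 when leaving out single libraries, where 1184 came without K82S, 1 without W89S and 0 without each of the others. Genes of the 8 without overlap between genotypes numbered 0 with all libraries, 1 with K82S and W83S both left out and 0 to 2 when leaving out single libraries (Creb3l3 without K82S, Cpt1a and Acadm without K86S, Angptl4 without W90S). Over all rows the share without overlap, in either direction, was 17.2% with all libraries, 44.2% without K82S, 28.0% without K86S, 23.1% without W90S and 52.8% without both K82S and W83S. Pathway genes past the threshold numbered 0 to 1 (Ech1 without K82S), and the median log2 fold change of the 8 genes ran from -0.21, without K86S, to 0.10 when leaving out single libraries, and was 0.16 with scaling to the same sum. Scaling to the same sum reversed Cpt1a to 0.05 and Angptl4 to 0.14, and median-ratio scaling Angptl4 to 0.05. Array weights reversed Acadl to -0.10, Angptl4 to 0.15 and Plin2 to -0.13, and leaving out both K82S and W83S reversed Angptl4 to 0.06 and Plin2 to -0.10. Leaving out single libraries gave -0.25 to 0.55 for Ppara, -0.12 to 0.22 for Acadl, -0.45 to 0.39 for Pdk4, -0.21 to 0.47 for Creb3l3, -0.50 to 0.37 for Angptl4 and -0.09 to 0.16 for Plin2. The cause of these changes was not tested. No paired analysis was possible because, although the study describes the mice as matched, neither its text nor the labels say which KO mouse belongs with which WT mouse. K79S was the only library without Y-linked RNA, so a fit with sex as a term and the fit without K79S cannot be told apart. The reads behind each FPKM value are unknown, the totals that the study states per library were not used here, and 3 mice a genotype limit what could be detected for the genes of wide spread.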
